A study of Homo sapiens with 7 samples.

Results

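The H3K9me3 set deposited for Clone 3 held 567 domains, of which 254 were shorter than 100 kb, and these 254 short domains are described here. They were chosen by length alone, on all chromosomes and contigs, and their lengths are therefore given only as a description. The cells were derived from HCT116, a human colorectal carcinoma line, as the clones named Clone 3 and Clone 6, in which doxycycline induces an shRNA against UHRF1. All cells used here were grown for 14 days without doxycycline, so the shRNA was not induced in any group, and each clone is a single isolate of the line. Chromatin was immunoprecipitated from 2 H3K9me3 samples of Clone 3, 2 H3K27me3 samples of Clone 3 and 2 H3K27me3 samples of Clone 6, with 1 input sample of Clone 3. For each clone and mark the authors kept the domain coordinates consistent between the replicates, as 1 domain set. The length of a domain here is that of the coordinates kept, which need not be the length of a call in either replicate. Clone 6 H3K9me3 entered only through the set of H3K9me3 domains shared by both clones. No value per replicate was available for a length, a count or a share, and no test between groups was run. Intervals given with a share are exact (Clopper-Pearson) 95% intervals, which cover counting error only and treat the domains as independent, although neighbouring domains may share a call.

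Trimethylation of lysine 9 on histone H3 marks constitutive heterochromatin, and it is known on satellite repeats beside centromeres, on transposable elements and over clusters of zinc finger genes. KRAB zinc finger proteins bind such repeats and recruit the corepressor TRIM28 and the H3K9 methyltransferase SETDB1, and the zinc finger exons of their own genes carry the same mark. H3K27me3, placed by Polycomb complexes, marks facultative heterochromatin and is usually found apart from H3K9me3. UHRF1, the target of the uninduced shRNA, binds H3K9me3 and directs DNMT1 to newly replicated DNA. Domains in these sets were called with Enriched Domain Detector, which searches for broad regions enriched over input.

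The sequences below are shown because they stand for the kinds of DNA that the short domains held. All coordinates are 1-based and refer to hg38. The first stretch lay in chr4:49095001-49122000, the short domain richest in the pentamer GGAAT, the unit of human satellites II and III. It runs from chr4:49102421-49102570 and is written on the minus strand, with its 25 GGAAT units in capitals.
pentamer array: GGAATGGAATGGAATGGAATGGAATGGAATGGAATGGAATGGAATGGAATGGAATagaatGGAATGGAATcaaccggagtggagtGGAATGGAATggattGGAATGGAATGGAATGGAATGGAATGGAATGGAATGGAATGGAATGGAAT

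The second stretch, chr1:143212071-143212220 on the plus strand, came from the short domain with the most CpGs per kb, chr1:143208001-143224000. Its 13 CpGs are in capitals, and exact and diverged copies of the same pentamer surround them.
CpG-dense satellite: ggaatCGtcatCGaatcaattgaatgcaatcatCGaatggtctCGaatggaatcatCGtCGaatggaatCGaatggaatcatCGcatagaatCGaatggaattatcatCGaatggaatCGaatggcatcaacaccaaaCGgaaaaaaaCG

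The next stretches hold a coding of the linker between neighbouring zinc fingers, 14 bases spelled ACTGGAGAGAAACC and given in capitals. They lie in coding exons on the plus strand, at chr7:64707320-64707403 in ZNF107, at chr16:31754827-31754910 in KRBOX5 and at chr16:68563749-68563832 in ZFP90, the first match in each gene.
ZNF107 linker: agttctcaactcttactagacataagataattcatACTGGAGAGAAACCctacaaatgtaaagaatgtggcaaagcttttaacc
KRBOX5 linker: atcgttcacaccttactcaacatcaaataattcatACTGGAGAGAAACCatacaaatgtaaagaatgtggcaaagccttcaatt
ZFP90 linker: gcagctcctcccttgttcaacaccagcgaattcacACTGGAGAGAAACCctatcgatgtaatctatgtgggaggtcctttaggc

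The last of these, chr6:61372813-61372887 on the plus strand, holds the core of the CENP-B box (capitals), the motif of alpha satellite DNA that the centromere protein CENP-B binds.
CENP-B box: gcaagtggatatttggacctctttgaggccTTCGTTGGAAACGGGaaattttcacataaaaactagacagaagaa

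The short domains made up 11.2 Mb, or 2.98% of the length of the Clone 3 H3K9me3 set, and were between 1 and 98 kb long with a median of 41.5 kb. The quartiles were 25 and 61.75 kb. The other 313 domains ran from 101 to 11436 kb, with a median of 616 kb. Just under the limit lay chr7:57638001-57736000 with 98 kb and chr1:102469001-102566000 and chr1:124979001-125076000 with 97 kb each. Just above it lay chr5:140731001-140832000 with 101 kb, which held the start sites of the protocadherin genes PCDHA1 to PCDHA6, a contig domain of 101 kb, and chr5:150864001-150966000 with 102 kb, which held ZNF300. The shortest, chrX:88276001-88277000, spanned 1 kb, the unit in which all starts and ends were placed.

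The first question was whether the short domains went with long domains, judged by a common score, or stood alone, and both kinds were common. Each deposited domain carries 2 scores, whose scale and origin are not given in the sources used here. They were read as coming from 2 lists of calls, 1 score for each, which is an inference from the runs described next and decides what linked means. Neighbouring domains often had 1 score exactly equal while the other differed, in unbroken runs along the chromosome. A short domain was called linked when it lay in such a run with a domain of at least 100 kb. By this measure 102 short domains were linked (40.2%, interval 34.1 to 46.5%). A further 8 lay within 100 kb of a long domain without a common score, and 144 stood alone (56.7%, interval 50.4 to 62.9%). Which group was larger depended on the domains counted. On chromosomes 1 to 22 alone, 101 of 194 short domains were linked and 87 stood alone, and 55 of the 144 stand-alone domains lay on X, Y or a contig with no long domain to be linked to. Among the 32 short domains whose lower score reached the median of the whole set, 32.9, 25 were linked and 5 stood alone. Linked domains share 1 of the 2 scores with a long domain, so this filter is not independent of the classes. Why it kept more linked domains was not tested. The classes are defined by equal scores, so their score levels are a description only, with a median first score of 107 in linked and 16.4 in stand-alone domains. The second score had medians of 24.5 and 48.7, and was the higher of the 2 in 15 of 102 linked and 131 of 144 stand-alone domains.

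Of the linked domains 97 shared the first score with a long domain, 5 the second and 0 both. The gap between a linked domain and its nearest long domain had a median of 13 kb, with quartiles of 5 and 40 kb and a range of 2 to 271 kb. The nearest long domain itself had a median length of 521 kb. These 102 domains belonged to 69 runs, of which 46 held 1 short domain, 15 held 2, 6 held 3 and 2 held 4. The domains of a run together covered a median of 98.6% of its span, with a minimum of 70.0%. Since each run holds a long domain, this share is set largely by that domain. One such run on chromosome 2, chr2:136836001-137531000, consisted of 1 long and 4 short domains with the first score 110, and the 4 short domains all lay inside THSD7B, a thrombospondin-repeat gene of 912 kb. Another, chr4:58931001-67156000, joined 2 short domains and 1 long domain over 8225 kb with the first score 1640.

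Counted by distance alone, 99 short domains (39.0%, interval 32.9 to 45.3%) lay within 100 kb of a long domain. The background is the share of all windows of 41 kb outside the long domains and the assembly gaps that lay as close, which was 2.17%. The counts were 39 within 5 kb, 48 within 10 kb, 63 within 20 kb, 87 within 50 kb, 117 within 200 kb and 141 within 1000 kb. The plot of gaps by class shows these distances for each domain. The 8 near domains without a common score included the neighbours chr7:57638001-57736000 and chr7:57760001-57828000, which shared the second score 232 with each other and lay 26 and 33 kb from long domains. When domains within 10 kb of each other were merged before the lengths were taken, the set held 162 domains under 100 kb, some of them joined from several short ones.

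**Figure D1:**
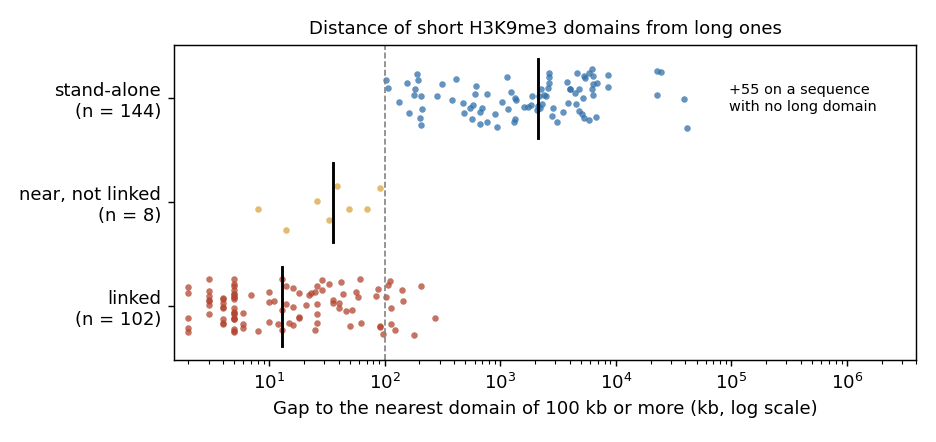
Gap in kb (log scale) from each short H3K9me3 domain to the nearest domain of 100 kb or more, by class. Each point is a domain, the black bar is the median of the class and the dashed line marks 100 kb. Linked domains have a median gap of 13 kb and stand-alone domains one of 2138 kb, and a further 55 stand-alone domains lie on a chromosome or contig that holds no long domain.

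The stand-alone domains are more than 100 kb from a long domain by definition. For the 89 with a long domain on their chromosome or contig the median gap was 2138 kb, with a largest gap of 41.7 Mb for chr7:6659001-6706000, which covered most of ZNF12. Standing apart from long domains did not mean standing singly, since 75 of the 144 had another short domain within 100 kb and 70 shared a score with another short domain. In all, 34 runs of an equal score held short domains only, with a median span of 94 kb, and 16 of these runs spanned at least 100 kb. The widest was a group of 4 domains on the X chromosome, chrX:5512001-6640000, with the second score 537, which covered 164 kb of 1128 kb.

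The stand-alone domains could be divided by position and sequence into kinds that do not overlap, a division made after their values had been seen. On the autosomes and Y there were 89 of them. Of these, 22 held at least 1 doubled pentamer per kb, 19 held the body of a zinc finger gene of the ZNF list without being pentamer-rich, 24 others lay within 5 Mb of the block of CENP-B boxes that marks the centromere of their chromosome, and 24 had none of these features. The remaining 39 and 16 lay on the X chromosome and on contigs. Nearness to a block was not limited to these 24, since 44 of the 89, 17 of the 102 linked and 8 of the 39 X domains lay within 5 Mb, as does 8.49% of gap-free chromosome sequence.

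The X chromosome was the place where short domains were most numerous, with 39 short and 0 long domains, or 25.2 short domains per 100 Mb of gap-free sequence. Chromosome 21 had 27.4 per 100 Mb, with 11 short and 11 long domains, and chromosome 18 had 2.5 per 100 Mb, with 2 short and 15 long. The X domains were between 1 and 72 kb long, with a median of 23 kb, and together covered 1006 kb. Their first scores ran only from 12.1 to 25 with a median of 13.4, and their second scores from 13.5 to 537 with a median of 28, the second being the higher in 35 of 39. Of the 39, 23 lay in 11 runs of an equal first score that spanned at most 75 kb, and 25 of the 39 had another domain within 100 kb. In the set shared by both clones 38 of the 39 were present. The only X domain absent from that set was chrX:46466001-46509000, which covers parts of the KRAB box gene KRBOX4 and of the zinc finger gene ZNF674. The plot of domain numbers by chromosome sets the classes side by side.

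**Figure D2:**
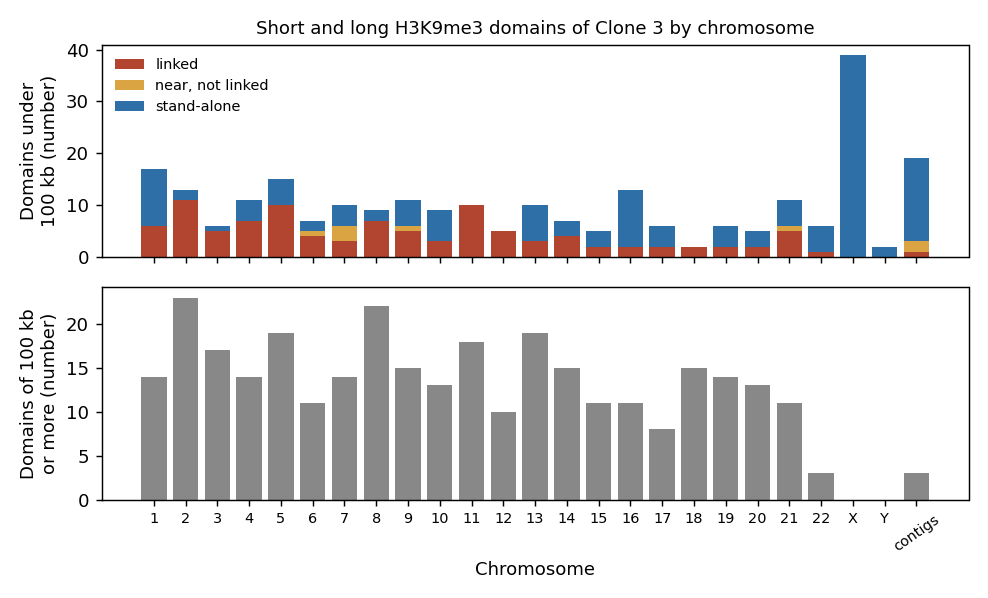
Number of short (upper panel, by class) and long (lower panel) H3K9me3 domains of Clone 3 on each chromosome and on all contigs together. The X chromosome holds 39 short and 0 long domains, and on chromosomes 11, 12 and 18 the 10, 5 and 2 short domains were all linked.

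Stand-alone domains predominated on chromosome 16, where 11 of 13 stood alone, on chromosome 1 (11 of 17) and on chromosome 13 (7 of 10). Linked domains predominated on chromosome 2, with 11 of 13, and made up all 10 short domains of chromosome 11. The Y chromosome held 2 short and 0 long domains. One of them, chrY:11289001-11335000, held the start sites of the DUX4-like pseudogenes DUX4L16 to DUX4L19 and 14.3 doubled pentamers per kb.

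The short domains ranged from CpG-poor to satellite-rich sequence, and a subset rich in satellite DNA raised their pooled CpG density. Pooled over their sequence, short domains had 9.94 CpGs per kb against 7.11 in long domains and 10.0 in all sequence examined. Without the 34 pentamer-rich domains defined below it was 8.04 in the other 220, and in the 34 it was 20.2. Their GC content was 38.9%, against 37.6% in long domains and 40.9% in all sequence. Of their CpGs, 53.8% were low-density, meaning at least 20 bp from the nearest CpG, against 64.3% in long domains and 53.0% in all. Medians per domain lay closer together, at 7.2 CpGs per kb for short and 6.52 for long domains, with quartiles of 5.59 and 10.7 for the short ones. The linked domains had 6.80 CpGs per kb and 64.7% low-density CpGs, near the values of long domains, and the X domains had 6.96 and 66.3%. The stand-alone domains as a whole had 12 CpGs per kb and 49.6% low-density CpGs.

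By kind, the median was 22.2 CpGs per kb in the pentamer-rich stand-alone domains, with a range of 6.07 to 49.8. It was 12.1 in those with ZNF genes, 12.6 on contigs, 8.76 near the centromeric blocks, 6.90 on the X chromosome and 5.66 in the 24 with none of these features. The highest density was that of chr1:143208001-143224000, a domain of 16 kb with 49.8 CpGs per kb, followed by chr10:42078001-42104000 with 45.9. The first is the source of the CpG-dense satellite shown above. Linked domains reached 25.2 CpGs per kb at most. The plot of CpG density by kind shows each domain.

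**Figure D3:**
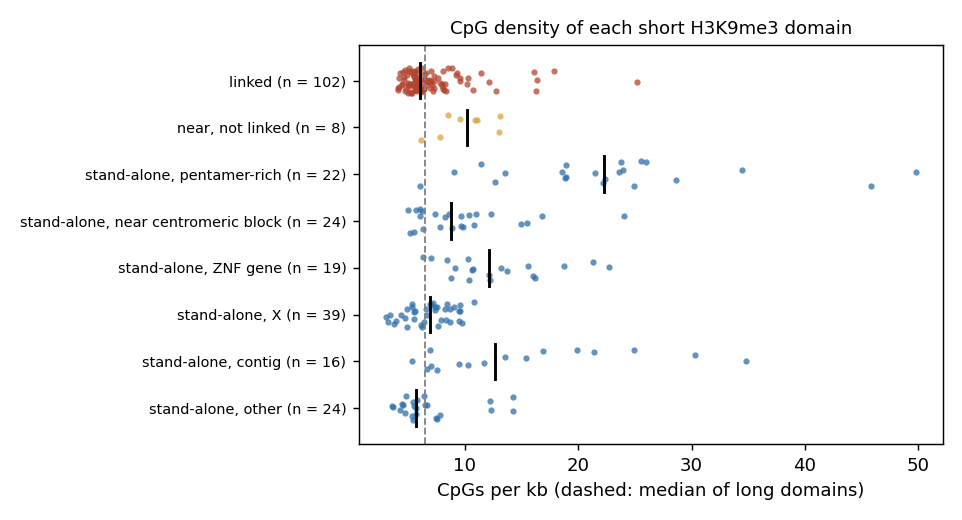
CpGs per kb of each short H3K9me3 domain, by kind. Each point is a domain, the black bar is the median of the kind and the dashed line is the median of the long domains, 6.52. The medians run from 5.66 in the stand-alone domains without a named feature to 22.2 in the pentamer-rich ones.

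Satellite pentamers were concentrated in the short domains. The doubled pentamer, spelled GGAATGGAAT and searched on both strands with overlapping matches counted, occurred 79376 times in the chromosomes and contigs that hold a domain. Short domains are 0.382% of that sequence and held 30.4% of the matches, while long domains held 18.2%. Of the 1 kb bins of short domains 9.70% held it, against 0.570% in long domains and 0.503% of all bins. The matches lay in few members. The 34 domains with at least 1 match per kb held 99.5% of those found in short domains, and 23 of the 34 lay on 12 chromosomes and 11 on contigs.

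The densest was chr4:49095001-49122000 with 64.7 matches per kb, the source of the array printed first. It was followed by chr17:21975001-21984000 with 60.1, which was the only linked domain among the 34, and by chr4:49140001-49159000 with 59.8, chr20:31052001-31080000 with 59.1 and chr4:49629001-49656000 with 54.8. The scores of chr4:49095001-49122000 were 21.3 and 42.5, and those of chr20:31052001-31080000 were 14.6 and 46.9. Chromosome 10 held 5 of the placed domains, and chromosomes 4 and 16 held 3 each. None of the 23 on chromosomes overlapped a protein-coding gene, and 19 of them lay within 5 Mb of the block of CENP-B boxes.

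The core of the CENP-B box, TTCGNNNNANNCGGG on both strands, marks alpha satellite. It occurred in 9 short domains and in 0.635% of their 1 kb bins, against 1.94% of all bins and 0.0391% of those in long domains. The counts were highest in chr1:124979001-125076000 with 24 boxes, in a contig domain with 18, and in chr6:61372001-61424000 with 17, the domain of the box shown above. The first of these overlaps the end of the chromosome 1 block, chr1:121613001-125037000. How reads from near-identical repeats were placed in the satellites was not tested.

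The contigs, unplaced or unlocalized pieces of the assembly, held 19 short domains on 13 contigs and 0.997 Mb in all. The short domains covered between 8.88 and 91.1% of their contig, with a median of 48.4%. Their pooled CpG density was 14.9 per kb with 6.83 doubled pentamers per kb, and 18 of the 19 were in the clone-shared set. The contig chrUn_KI270442v1 held 5 of them beside 1 long domain of 101 kb. By the lower of the 2 scores, the highest of the stand-alone domains lay on the contig chr22_KI270736v1_random, at 59001 to 156000 with scores 82.8 and 178 and at 1 to 57000 with 82.8 and 82.6. Genes on contigs were not analysed here.

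The second question was which genes the short domains held, and the answer was few, with zinc finger genes the largest group. Of 20046 annotated protein-coding genes, 27 had their start site in a short domain (0.135%), in 20 of the 235 short domains on chromosomes (8.51%). Long domains held 645 start sites, 3.22% of all, and 54.5% of the 310 on chromosomes held at least 1. Of the 235 short domains 175 touched no protein-coding gene body (74.5%), as did 105 of the 310 long ones (33.9%), which are larger targets. As background, 59.9% of all windows of 41 kb outside long domains met a protein-coding gene body. Per Mb the start sites were not sparser in short than in long domains, at 2.41 and 1.76. Both lengths include contigs, which the gene annotation does not cover, and the rate over all sequence was not taken. Stand-alone domains held 19 of the 27 start sites and linked domains 8.

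Of the 27 genes 14 belonged to the list of 569 ZNF, ZFP, ZSCAN and related genes, by symbol, which is 2.46% of the list, beside the 0.135% of all genes. Long domains held 214 (37.6%). Of the 14, 12 lay in stand-alone domains and 11 lay off chromosome 19, where the largest clusters of this family are. The list had been chosen with its abundance in the H3K9me3 set already known. The domain with the most start sites was chr1:40436001-40513000, 77 kb long with scores 23.2 and 84.4 and 8543 kb from the nearest long domain, which held ZFP69B, ZFP69 and EXO5, the last an exonuclease of single-stranded DNA. The domain chr19:2821001-2900000 held ZNF555 and ZNF556 and lay 6308 kb from a long domain. The domain chr3:44695001-44761000 held ZNF502 and ZNF501, and chr16:3284001-3330000 held ZNF75A and TIGD7, a gene derived from a Tigger transposon.

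The other stand-alone zinc finger starts were those of ZFP3 in chr17:5069001-5111000, ZNF780B in chr19:40008001-40082000, ZNF16 in chr8:144907001-144996000, and ZNF883 and ZFP37 in chr9:112972001-113060000. The linked ones were ZNF669 and ZNF124, in chr1:247091001-247116000 and chr1:247130001-247208000, which lay 13 and 52 kb from a long domain. All domains named for these genes were in the clone-shared set, whole or in part, the least being chr19:40008001-40082000 with 64.9% of its length.

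Counting gene bodies in place of start sites, 36 ZNF genes (6.33% of the list) met 24 short domains, 20 of them stand-alone, beside 0.369% of all protein-coding genes that met a short domain. The domains covered the end of these genes more often than the start. Both ends of the gene lay in the domain for 13 genes, the end alone for 22, the start alone for 1, which was ZNF124, and neither end for 0. In the 22 genes with the end alone inside, the domain covered a median of 80.0% of the body, from 23.6% in ZNF674 to 97.9% in ZFP1. ZNF263, ZNF107, ZNF267, ZNF184 and ZNF12 were covered over 94.9 to 96.0% of their length with the start site left outside. In long domains 205 of 232 ZNF genes lay in the domain with both ends, 16 with the end alone, 9 with the start alone and 2 with neither. For other protein-coding genes, in 28 of 47 pairs of gene and domain neither end of the gene lay inside, and the genes had a median length of 360 kb against 19 kb for the ZNF genes.

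The linker motif shown above is an exact coding of the linker between zinc fingers, and other codings of it were not searched. It was matched 1269 times on both strands in all sequence examined, 80 times in 21 short domains (6.30%), while long domains held 68.2% of the matches. Of the 1 kb bins it occurred in 0.349% in short domains, 0.0913% in long domains and 0.0197% in all. Of the 80 matches 58 lay in coding exons of 23 genes, 12 in exons of pseudogenes such as ZNF252P, ZNF204P and ZNF731P, and 1 in an intron. ZNF107 had the most with 9, and KRBOX5, ZFP90, ZNF124, ZNF267, ZNF490 and ZNF555 had 4 each. The other 9 lay on the plus strand between 180258460 and 180259814 of chromosome 5, in chr5:180240001-180289000, where no annotated gene covers them on that strand. A processed pseudogene of the same strand, ENSG00000253908, ends just before the first of them, at 180258366. This domain lies inside the body of MAPK9, the kinase JNK2, and stood 1138 kb from the nearest long domain with scores 13 and 56.2.

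The genes with start sites outside the zinc finger list were few. On the X chromosome they were CFAP47, a cilia and flagella gene, LPAR4, a receptor for lysophosphatidic acid, and ITM2A, which encodes a membrane protein. On chromosome 21 LIPI, a lipase gene, and RBM11, an RNA-binding splicing regulator, shared chr21:14204001-14252000, 36 kb from a long domain. The muscle gene XIRP2 and TUSC3, a subunit of the oligosaccharyltransferase, started in linked domains that were absent from the clone-shared set, chr2:166860001-166905000 and chr8:15389001-15428000. OR4A47 was the only olfactory receptor of 416, in chr11:48427001-48514000, beside 6 receptor pseudogenes of the OR4 family. MSANTD5 and 2 genes without a symbol, ENSG00000285329 and ENSG00000269693, completed the 27. The lists of clustered protocadherins, HOX genes, keratins, histone genes, cadherins, cancer-testis genes and the remaining families examined each had 0 start sites in short domains, and at the share of 0.135% over all protein-coding genes lists of this size would hold few or none.

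Gene bodies of any length were counted next, and a long gene is a larger target for a domain to fall in. Of all windows of 41 kb outside long domains that met a protein-coding gene, 26.3% met one of at least 300 kb and 1.61% met a ZNF gene. Of the 26 linked domains that met a protein-coding gene 19 met one of at least 300 kb, and 16 lay wholly inside a gene body without its start site, in 12 genes with a median length of 792 kb. Examples are THSD7B, MYT1L, a neural transcription factor with the domains chr2:2178001-2202000 and chr2:2205001-2258000, the splicing factor gene RBFOX1 and NRG1, which encodes neuregulin. Of the 33 stand-alone domains that met a gene 7 met one of at least 300 kb, and 20 met a ZNF gene, with a median ZNF gene length of 18.8 kb.

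The upstream sequence of the genes that started in short domains ranged from CpG-free to CpG-rich. RefSeq promoters (GRCh38.p14) were matched for 23 of the 27 genes, and the RefSeq start also lay in the domain for all 23. In the 250 bases upstream of the start these had a median of 15 CpGs, with a range of 0 to 27, against a median of 17 and quartiles of 7 and 26 over 15345 protein-coding genes. The 13 ZNF genes among them had a median of 20, beside 17 over 477 ZNF genes of the list, and the other 10 a median of 8. The extremes are printed because they show how different the DNA under a short domain can be, with CpGs in capitals. ZFP69 has the most CpGs, at chr1:40477040-40477289 on the plus strand, and OR4A47 none, at chr11:48488543-48488792 on the plus strand.
ZFP69 upstream: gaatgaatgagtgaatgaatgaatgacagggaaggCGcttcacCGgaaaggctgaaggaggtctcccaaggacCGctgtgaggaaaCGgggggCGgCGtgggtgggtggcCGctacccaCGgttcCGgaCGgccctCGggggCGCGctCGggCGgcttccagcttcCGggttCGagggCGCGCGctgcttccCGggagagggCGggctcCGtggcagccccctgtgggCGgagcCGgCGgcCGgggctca
OR4A47 upstream: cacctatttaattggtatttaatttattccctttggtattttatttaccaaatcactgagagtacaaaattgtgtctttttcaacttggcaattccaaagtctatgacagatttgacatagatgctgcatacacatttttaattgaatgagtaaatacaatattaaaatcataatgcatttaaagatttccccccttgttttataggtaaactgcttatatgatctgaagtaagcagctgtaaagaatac

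Most of the short domains overlapped domains found in both clones. Of the 254, 186 overlapped the clone-shared H3K9me3 set (73.2%, interval 67.3 to 78.6%), 181 over at least 50% of their length and 161 over all of it. Of the long domains 269 of 313 did so (85.9%, interval 81.6 to 89.6%), and a longer domain has more positions at which to overlap. Of the stand-alone domains 115 of 144 did so (79.9%, interval 72.4 to 86.1%), and of the linked ones 63 of 102 (61.8%, interval 51.6 to 71.2%). These differences were not tested.

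The shared proportion varied among the kinds of stand-alone domain. The shared set held 21 of 22 pentamer-rich domains, 17 of 19 with a ZNF gene, 38 of 39 on the X chromosome, 15 of 16 on contigs and 19 of 24 near the centromeric blocks. With the X domain that met ZNF674 counted among those with a ZNF gene, it held 17 of 20 (85%). Of the 24 in none of these kinds it held 5 (20.8%, interval 7.13 to 42.2%), of which chr16:78432001-78496000 overlapped it over only 12.5% of its length. Some of the 24 held linker matches, as in chr5:180240001-180289000 and in ZNF204P at chr6:27348001-27373000. These 24 lay on 11 chromosomes, had first scores with a median of 14.3, and stood often in groups, such as 4 domains between chr9:29264001-29540000 with the first score 22.1 and 7 domains between 102281001 and 103976000 on chromosome 1. None of the 4 on chromosome 9 was in the shared set, and of the 7 on chromosome 1 the 2 nearest a long domain, chr1:103816001-103885000 and chr1:103949001-103976000, were. The shared set was made by the authors from both clones, and the Clone 6 H3K9me3 calls themselves were not analysed here.

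**Figure D4:**
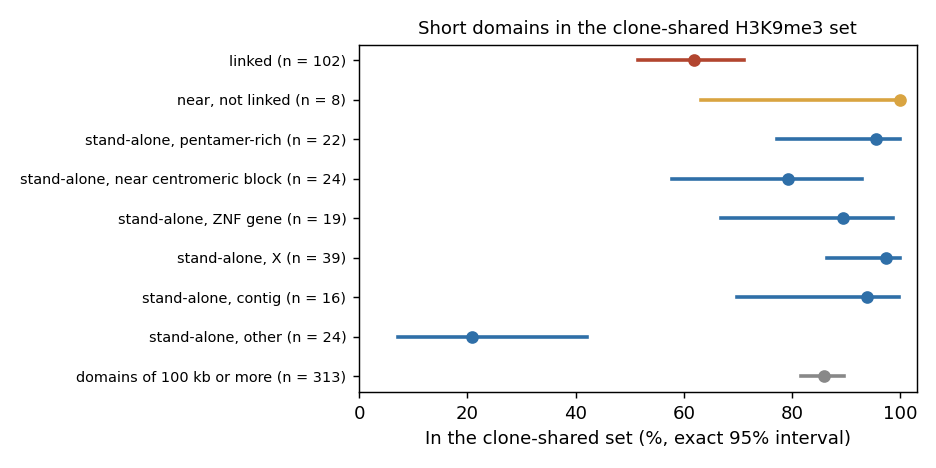
Share of short H3K9me3 domains that overlap the set shared by Clone 3 and Clone 6, by kind, with exact 95% intervals, and of the domains of 100 kb or more. The stand-alone domains without a named feature are at 20.8% and the linked ones at 61.8%, while the pentamer-rich, ZNF, X and contig kinds are between 89.5 and 97.4%.

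Few short domains overlapped H3K27me3. In Clone 3 there were 4 (1.57%, interval 0.431 to 3.98%), over 94 kb, while 17.6% of all windows of 41 kb outside the long H3K9me3 domains overlapped the mark. In Clone 6 there were 5 (1.97%), over 130 kb, beside 16.8% of the windows. All 9 overlaps were with linked domains. For long domains, which are larger targets, the shares were 13.1% and 14.1%. The 4 in Clone 3 were chr2:2178001-2202000 and chr2:2205001-2258000 in MYT1L, chr2:66584001-66602000 and chr3:22743001-22800000. The 5 that met Clone 6 H3K27me3, among them domains in NRG1 and THSD7B, were all absent from the clone-shared H3K9me3 set. Absence from that set was common among short domains, at 68 in all (26.8%), and of the 102 linked domains 63 were in it. Whether these 5 differ from other linked domains in this was not tested. Within 100 kb of a Clone 3 H3K27me3 domain lay 34 short domains (13.4%), of which 30 were linked and 4 stood alone. Of the long ones, again the larger targets, 143 did (45.7%). The share of all windows that lay as close was not counted, so these shares have no background beside them. The median gap to H3K27me3 was 221 kb for linked and 1340 kb for stand-alone domains.

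Besides protein-coding genes the short domains held the start sites of 48 long noncoding RNA genes, 96 pseudogenes and 5 miRNA genes. These are 0.254% of annotated long noncoding RNA genes, 0.63% of pseudogenes and 0.266% of miRNA genes, beside 0.297% of genes of all biotypes. Pseudogenes were grouped in places, as in the neighbours chr7:57638001-57736000 and chr7:57760001-57828000 near the centromere of chromosome 7, the second of which held 11 unprocessed pseudogenes. The miRNA genes are MIR3916 in the ZNF124 domain, MIR6839 in the ZNF107 domain, MIR1268A in chr15:22221001-22308000, and MIR4770 and MIR651 on the X chromosome in chrX:6340001-6392000 and chrX:8092001-8156000. Their mature sequences are printed as RefSeq gives them, with the seed (bases 2 to 8) in capitals, and no seed was shared between them.
hsa-miR-3916: aAGAGGAAgaaauggcugguucucag
hsa-miR-6839-5p: uCUGGAUUgaagagacgaccca
hsa-miR-6839-3p: uUGGGUUUucucuucaauccag
hsa-miR-1268a: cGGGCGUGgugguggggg
hsa-miR-4770: uGAGAUGAcacuguagcu
hsa-miR-651-5p: uUUAGGAUaagcuugacuuuug
hsa-miR-651-3p: aAAGGAAAguguauccuaaaag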

How the data were processed

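Per the labels and the paper's methods, the authors trimmed read pairs of 50 bp, aligned them to hg38, removed duplicates with samblaster, called domains with Enriched Domain Detector at default parameters and kept those found in both biological replicates. Trim Galore 0.5.0 and Bowtie2 2.3.5 are named in the submitters' processing notes. The deposited sets hold starts and ends in whole kb and, for clone sets, 2 deposited scores per domain of unstated scale. Scores were used only by equality, order, range and median. The study's methods set a minimum number of read pairs per library, and the depth each library reached cannot be read from domain sets.

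Domains under 100 kb were members. The members, gene lists and kinds were chosen with earlier results of these data known. Genes came from GENCODE 44, which covers chromosomes but not contigs. A gene belonged to a domain by its start site. Genes named are those of the gene lists with a start in a member, and those of the highest-scored, gene-richest, farthest and threshold domains. Other genes, sequences and domains were named after their values were seen. CpGs, GC and motifs were counted in 1 kb bins of hg38. The centromeric block of a chromosome is its largest cluster of bins with at least 3 CENP-B boxes, joined over 500 kb. The procedures for overlaps, CpG classes and runs of equal scores were tested on simulated data. Alternatives were other length limits (50 and 200 kb), distances, overlaps, score matches, CpG spacings, gene assignments, chromosomes, and domains of higher score. Calculations ran in Python 3.11.15 with pandas 2.3.3, numpy 2.4.6 and scipy 1.17.1, and plots in matplotlib 3.10.9.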

Additional observations from a re-analysis of the deposited data

How the results depend on the processing

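Of 68 alternative values for 12 results, 25 stayed near the main value and 43 moved. Counts moved when they differed by over 1.5 times, and shares and densities when they fell outside the main value's 95% counting interval, which is narrow for CpGs and GC. The difference in CpG density between short and long domains kept its sign in every setting run. The stand-alone majority (144 of 254) did not hold on chromosomes 1 to 22 (87 of 194) or in the higher-scored part (5 of 32). Linked domains share 1 score with a long domain by definition, so a filter on score is not independent of the classes. The value in the higher-scored part therefore says nothing of how strong stand-alone domains are, and its cause was not tested. The depth each library reached was not analysed here, and it cannot be said which short domains more depth would join or remove. Replicates could not be left out, since each set holds only what was kept from both. No paired analysis was possible because the deposited sets hold no domain list per replicate and the results come from no test.

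With short domains under 50 kb there were 163, with 9.62 CpGs per kb (2.51 above long domains), 54.7% low-density CpGs, 39.1% GC, 14 protein-coding and 3 ZNF start sites. With a limit of 200 kb for short and long domains, 27.4% lay within 100 kb of a long domain and 30% shared a score with one, with 9.26 CpGs per kb (2.18 above long domains), 55.1% low-density CpGs, 38.5% GC, 53 protein-coding and 24 ZNF start sites. On chromosomes 1 to 22 alone these shares were 49.5% and 52.1%, 66.0% were in the clone-shared set, and there were 9.68 CpGs per kb (2.58 above long domains) with 54.2% low-density. Only 32 short domains were among the higher-scored part of the set (lower score at or above the median of 32.9). Of these 81.2% lay within 100 kb of a long domain, 78.1% shared a score with one and 0.0% overlapped Clone 3 H3K27me3, with 8.23 CpGs per kb (1.12 above long domains), 59.2% low-density CpGs, 38.8% GC, 4 protein-coding and 1 ZNF start sites.

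Merging domains within 10 kb left 162 short domains. Within 200 kb of a long domain lay 46.1%, and a score match with the next domain only gave 28.7% linked. Within 100 kb of H3K27me3 lay 13.4% (Clone 3) and 15.4% (Clone 6). Without chromosome 19 there were 9.79 CpGs per kb, 54.3% low-density CpGs and 38.7% GC. A CpG spacing of 35 bp gave 36.3% low-density CpGs and the downstream CpG alone 70.2%. Any overlap of the gene body gave 74 protein-coding and 36 ZNF genes. The cause of each change was not tested beyond the change of members that the setting makes.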
